A study of Mus musculus with 10 samples.

Results

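Mouse bone marrow cells that carried any ASXL2 construct were compared with cells that carried the empty vector (EV). Members were chosen by the labelled genotype: 8 libraries with an ASXL2 construct and 2 libraries with the empty vector, which together are all 10 libraries of the series. The 8 construct libraries were 2 of full-length (WT) Asxl2 and 2 each of the over-expressed mutant forms Mutant1, Mutant2 and Mutant3, whose nature the labels do not give. All groups shared the same starting cells, lineage-negative and Kit-positive marrow, the same sort for GFP and the same expansion in IMDM with serum, IL3, IL6 and SCF, after which polyA RNA was sequenced. The labels name neither the strain and age of the mice nor the vector. Whether a group's 2 libraries are separate cultures is not stated, and p-values then reflect only the library-to-library spread, which may be technical.

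ASXL2 is a chromatin protein that binds BAP1, the enzyme that removes ubiquitin from histone H2A and so opposes the mark set by Polycomb repressive complexes. Its gene is mutated in a form of acute myeloid leukaemia with the RUNX1 fusion, and the proteins of this family act in blood stem and progenitor cells. The question here is what all forms of ASXL2 had in common, and Asxl2 itself is therefore only the check on the labels.

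Depth lay between 52422686 and 79320702 estimated counts per library, and 17810 genes entered the test. The libraries fell into 2 batches by their deposited names, each with 1 empty vector and 4 construct libraries, and the first principal component (41.2% of the variance) separated these batches for 10 of 10 libraries. The deposited names of 4 mutant libraries carry another mutant number than the label, and for 2 of them another batch, which does not touch the pooled class of constructs. The batch of the deposited names was therefore kept in every fit as a block unless stated. Mast cell genes marked the cultures. The granule protease Cpa3 lay between 19385 and 27096 TPM, and the IgE receptor chain Fcer1a between 5760.0 and 8224 TPM. Of 21 lymphoid markers, 20 averaged under 1 TPM. The progenitor marker Cd34 was present at 198 to 333 TPM and Procr, close to the floor, at 0.137 to 3.41 TPM. The expanded cells thus carried mast cell transcripts beside part of the progenitor set. Megakaryocyte markers summed to between 1956 and 2379 TPM with the empty vector and between 1675 and 2667 TPM with a construct. Itga2b led them at a mean of 1242.5 TPM, while 9 of 19 averaged under 1 TPM.

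Asxl2 (chromosome 12, 3426857 to 3506852, mm10) stood at 107 and 111 CPM in the 2 empty vector libraries and from 790.2 to 1892 CPM (median 1062) in the 8 construct libraries. The ranges did not overlap, and the fold was 10.4 (log2 fold change 3.38, SE 0.26, adjusted p = 0.000233). CPM are estimated counts relative to library size, scaled for composition (TMM), and adjusted p-values are Benjamini-Hochberg values over all 17810 genes from the quasi-likelihood test of edgeR. A gene is called higher or lower here at an adjusted p under 0.05. Of the 13 tested members of a list of ASXL proteins and BAP1 complex subunits, Asxl2 was the one called. The paralogue Asxl1 stood at 107 and 103 CPM with the empty vector and between 91.9 and 104 CPM with a construct (median 97.6; log2 fold change -0.10, adjusted p = 0.233). Bap1 stood at 77.1 and 79 CPM with the empty vector and between 70.1 and 81.8 CPM with a construct (median 77.5; log2 fold change -0.03, adjusted p = 0.760).

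Beyond Asxl2, more genes rose than fell, the rises were larger than the falls, and the falls lay in more highly expressed genes. The test called 1573 genes (8.83% of those tested), of which 959 were higher (5.38%) and 614 lower (3.45%). The median rise was 1.62-fold, 356 genes rose by more than 2-fold and 112 by more than 4-fold. The median fall was 1.21-fold, 60 genes fell by more than 2-fold and 13 by more than 4-fold. The higher genes had a median level of 12.6 CPM in the construct class, and 313 of the 959 stayed under 5 CPM. The lower genes had a median of 60.7 CPM in the empty vector class. Over all genes tested the median in the higher class was 11.7 CPM, and 7550 of 17810 genes were under 5 CPM. The counts depend on how the batch is treated: without a block 252 genes were higher and 52 lower, and with the batch of the labels as the block 244 and 49. All 1573 genes had the same sign in both of those fits, which reuse the same libraries and so do not test the signs. Within batch 1 more genes were called lower than higher, as given below.

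**Figure D1:**
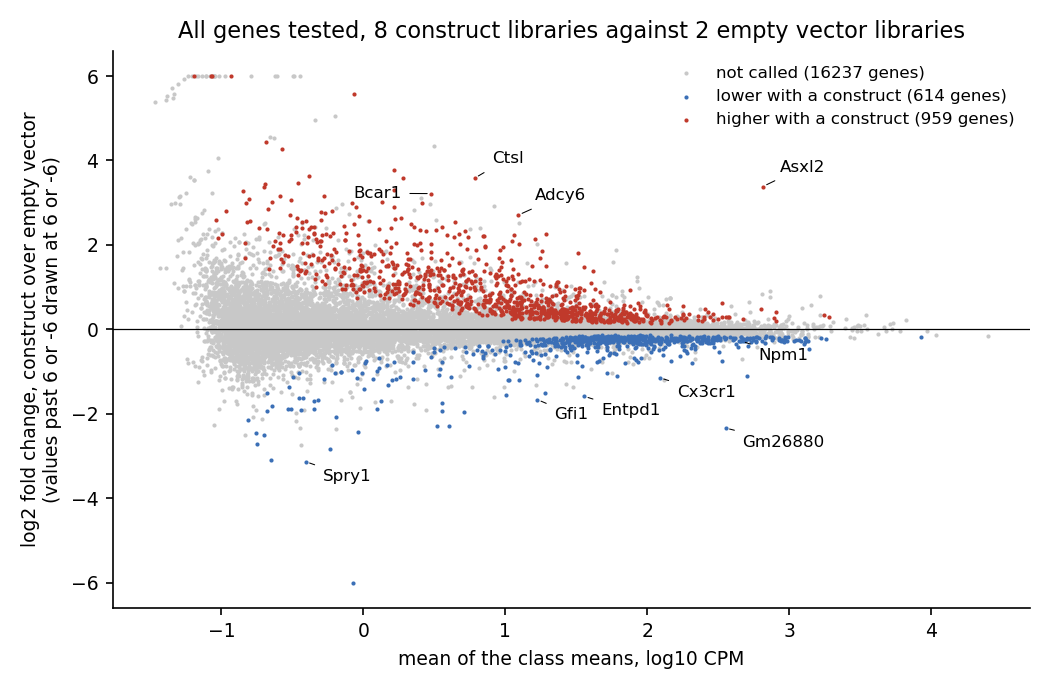
Log2 fold change of construct over empty vector (y axis) against the mean level in log10 CPM (x axis) for 17810 genes, with called genes in red (959 higher) and blue (614 lower). The red points spread farthest upward toward low levels, with Ctsl, Bcar1 and Adcy6 among them, while most blue points lie close under 0 at higher levels. Gm26880 lies far below the others of its level.

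Common to all 8 construct libraries means that each lay on the same side of the empty vector library of its own batch. This held for 1563 of the 1573 called genes (958 higher, 605 lower), against 4452 of all genes tested (25%). In a stricter count, all 8 construct libraries lay beyond both empty vector libraries for 734 of the higher genes (76.5%) and 311 of the lower genes (50.7%), against 1953 of all genes (11%). The called genes were picked with the same libraries, so these shares describe the calls and do not test them. The 4 construct libraries of a batch are compared with 1 empty vector library, and agreement among 8 therefore rests on 2 empty vector libraries.

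The batches share no library, and each gave its own estimate. Both estimates came from 1 fit of all 10 libraries with shared scaling and variance, which is what a batch alone means below. Batch 1 called 536 genes higher (3.01%) and 683 lower (3.83%), and batch 2 called 161 higher (0.904%) and 29 lower (0.163%). Of the genes called higher in batch 1, 512 of 536 (95.5%) also lay above the empty vector in batch 2, and of those called lower 521 of 683 (76.3%) lay below it, against 64.7% of all genes with the same sign in both. Of the genes called in batch 2, 157 of 161 (97.5%) of the higher and 29 of 29 of the lower had the same sign in batch 1. Genes lower in batch 1 had a median size of 0.39 on the log2 scale there and 0.12 in batch 2, whereas genes higher in batch 1 had 0.75 and 0.51. By edgeR's quasi-likelihood test 0 genes passed for a difference between the batches, and 1329 did at an unadjusted p under 0.05, 148 of them among the called genes.

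**Figure D2:**
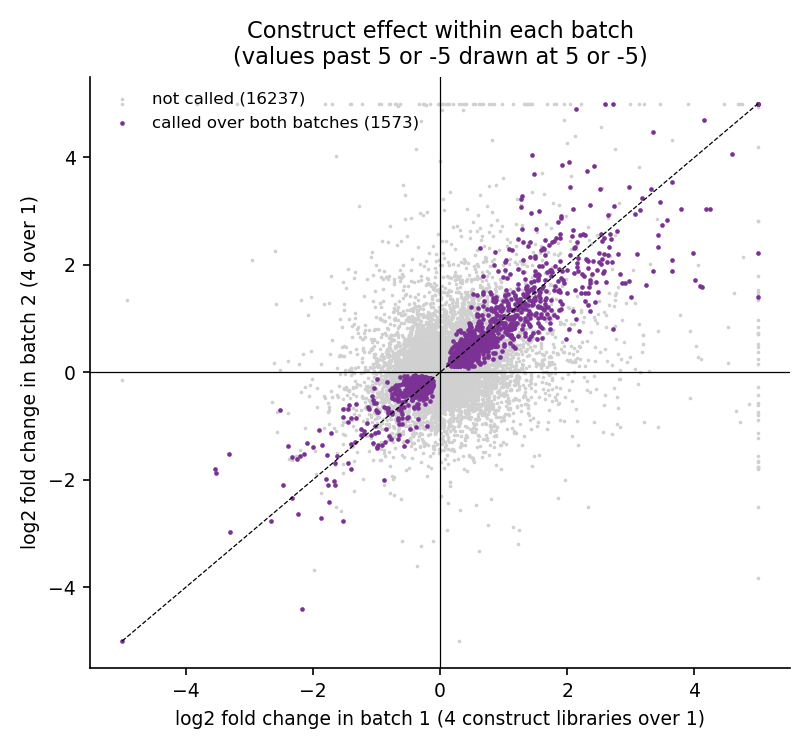
Log2 fold change of construct over empty vector in batch 1 (x axis, 4 libraries over 1) and in batch 2 (y axis, 4 over 1), with the 1573 genes called over both batches in purple and the others in grey. The purple points lie in the upper right and lower left of the plot, and the lower ones crowd near the origin.

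The most stable rises among genes named by a rule included genes that relay signals to the cytoskeleton, to PI3-kinase and to cyclic AMP. The rule takes genes by size and p and also up to 3 genes of each of 40 lists, so the lists shape this choice. Sorbs3 and Ralgds entered only through a list. Of 106 called genes so named, 13 beside Asxl2 kept their call under all 23 alternatives tried. These were other tests, scalings, filters and blocks, each library left out and each batch alone. Plekha8, Ncoa1 and Cdc14b, given below, also kept their call under every alternative but lie outside the rule. Of these 13, 10 were higher and 3 lower. Adcy6, an adenylyl cyclase that makes cyclic AMP, stood at 3.24 and 3.31 CPM with the empty vector and from 14.9 to 28.1 CPM (median 19.995) with a construct, a rise of 2.71 in log2 CPM (SE 0.26, adjusted p = 0.000541). Pik3cb, a catalytic subunit of PI3-kinase, stood at 2.54 and 2.48 CPM with the empty vector and between 8.83 and 14.8 CPM (median 11.3) with a construct, a rise of 2.21 (SE 0.19, adjusted p = 0.000169). For both genes the lowest construct library was more than 3 times the highest empty vector library.

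Adaptors of integrin adhesion rose as well. Bcar1 (p130Cas), a scaffold of focal adhesions, stood at 0.678 and 0.496 CPM in the empty vector libraries and between 3.38 and 7.76 CPM in the construct libraries (median 5.47; log2 fold change 3.22, SE 0.29, adjusted p = 0.000182). Sorbs3 (vinexin), which links vinculin to actin, stood at 4.05 and 5.87 CPM in the empty vector libraries and between 16.2 and 23.1 CPM in the construct libraries (median 19.2; log2 fold change 2.01, SE 0.16, adjusted p = 0.000126). Exchange factors that switch on small GTPases are the next set. Arhgef5, an activator of small GTPases, stood at 4.11 and 3.9 CPM and rose to 15.3 to 25.4 CPM (median 17.6; log2 fold change 2.23, SE 0.18, adjusted p = 0.00016). Arhgef11, which couples G proteins to small GTPases, stood at 8.59 and 7.15 CPM with the empty vector and between 13.7 and 21.6 CPM with a construct (median 17.6; log2 fold change 1.13, SE 0.08, adjusted p = 9.98e-05). Ralgds, a Ras effector that activates Ral, stood at 5.01 and 5.47 CPM in the empty vector libraries and between 10.7 and 16.3 CPM in the construct libraries (median 12.5; log2 fold change 1.27, SE 0.13, adjusted p = 0.000391). In all 5 genes the 8 construct libraries lay above both empty vector libraries.

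The remaining 3 of these 10 genes have other roles. The growth factor receptor Fgfr1 was the most abundant of them, at 32.3 and 26.1 CPM with the empty vector and between 44.8 and 67.9 CPM with a construct (median 56.4; log2 fold change 0.95, SE 0.07, adjusted p = 0.000109). Cand2, which handles cullin ubiquitin ligases, stood at 1.71 and 1.04 CPM with the empty vector and between 4.15 and 8.77 CPM with a construct (median 6.2; log2 fold change 2.23), and the membrane protein Tmem263 at 5.97 and 4.7 CPM in the empty vector libraries and between 14.6 and 19 CPM in the construct libraries (median 17; log2 fold change 1.64). Set side by side against the same empty vector libraries, full-length and mutant constructs gave log2 fold changes of 0.87 and 0.97 for Fgfr1, and 2.24 and 2.22 for Cand2. Adcy6 gave 2.38 with full-length ASXL2 and 2.80 with the mutants.

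**Figure D3:**
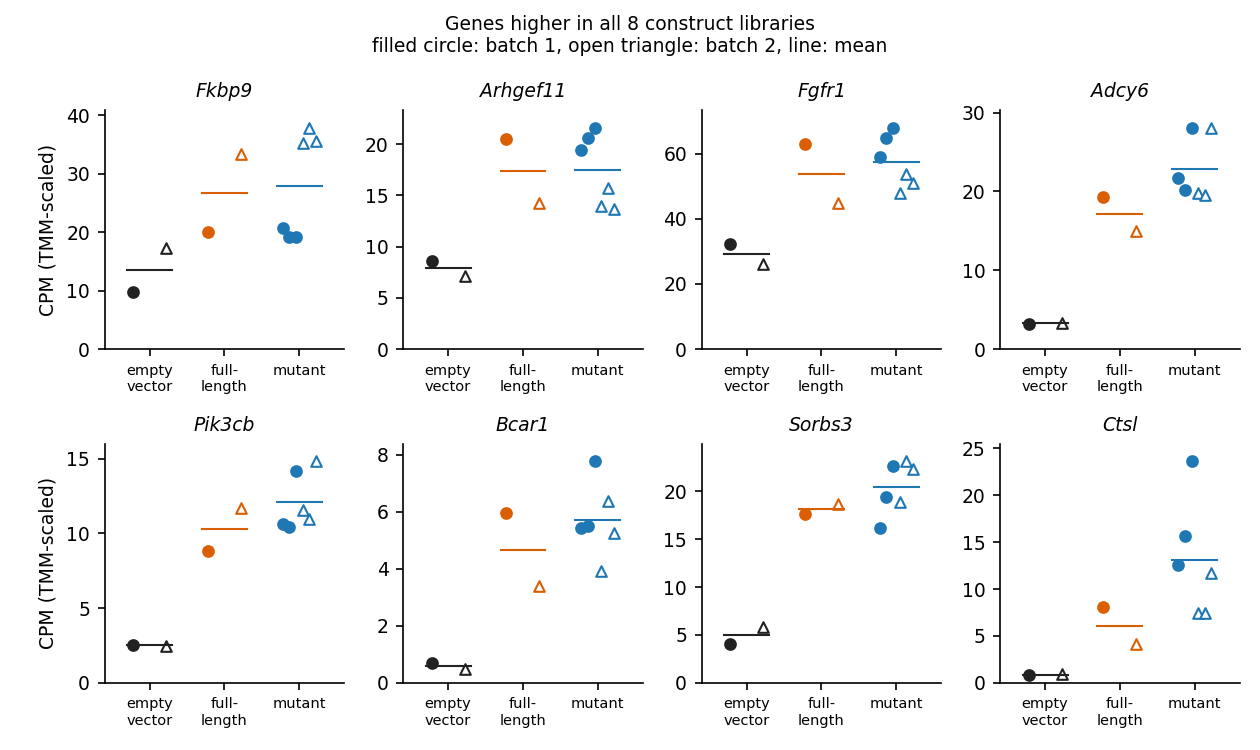
TMM-scaled CPM (y axis, from 0) of 8 genes in each library, by class on the x axis, with filled circles for batch 1, open triangles for batch 2 and a line at the class mean. In each panel the 2 empty vector libraries lie under all 8 construct libraries, and the construct points of Ctsl and Adcy6 are spread widely.

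Fkbp9, a prolyl isomerase of the endoplasmic reticulum, had the smallest p among the named rises and shows how the batch enters. It stood at 9.81 CPM in the batch 1 empty vector library and 17.2 CPM in that of batch 2, and from 19.1 to 37.8 CPM (median 27.1) with a construct. Its rise was 1.01 in batch 1 and 1.04 in batch 2 on the log2 scale (adjusted p = 5.03e-05 over both). Without the block or with the block by label the call was lost. The insulin-like growth factor receptor Igf1r behaved alike, at 38.8 and 23.9 CPM with the empty vector and between 33.9 and 65.9 CPM (median 52.5) with a construct (log2 fold change 0.70, adjusted p = 0.000182). It was chosen after its values were seen.

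In the gene lists of the same pathways more members rose than fell. All lists were drawn up with earlier results of these data known, so their counts support nothing by themselves. They are read here and below beside the shares over all genes, 5.38% higher and 3.45% lower. Of 26 tested PI3-kinase subunits and phosphatases 6 were higher, Pik3cb, Pik3r5, Pik3c2a, Pik3c2b and Inppl1 among them, and 0 lower, with a list median of 0.12 against -0.0082 over all genes. Inppl1 (SHIP2), a lipid phosphatase that removes the product of PI3-kinase, stood at 54.3 and 56.8 CPM with the empty vector and between 70.7 and 86.3 CPM with a construct (median 78.8; log2 fold change 0.51, adjusted p = 0.00202). Of 26 Ras exchange factors and GTPase activators 5 were higher, Ralgds and Rasgef1a among them, and 1 was lower. The lower one was Rasa2, which switches Ras off, at 13.5 and 16 CPM in the empty vector libraries and between 5.86 and 11.4 CPM in the construct libraries (median 8.62; log2 fold change -0.77, adjusted p = 0.0100).

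Of 42 focal adhesion and actin linkage genes 6 were higher and 2 lower, against 5.38% and 3.45% of all genes. The higher ones beside Bcar1 and Sorbs3 were the kinases Src and Ptk2, the adaptor Tns1 and the integrin chain Itgb1. Src stood at 15.4 and 19 CPM with the empty vector and between 23.3 and 40.8 CPM with a construct (median 29.4; log2 fold change 0.88, adjusted p = 0.0147). Itgb1 rose by 0.21 (adjusted p = 0.0130). The integrin chain Itgae was among the lower ones (log2 fold change -0.998). Of 24 adenylyl cyclases, phosphodiesterases and related genes 3 were higher and 0 lower. Beside Adcy6 these were the phosphodiesterase Pde8a (log2 fold change 1.94) and the protein kinase A subunit Prkacb (log2 fold change 0.26). The calls of Src and Ptk2 held under 13 of 23 and 8 of 23 alternatives.

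The other large rises concerned single genes of varied function. Ctsl, the lysosomal protease cathepsin L, had the largest rise among the genes named by the rule, from 0.791 and 0.934 CPM to 4.1 to 23.6 CPM (median 9.87; log2 fold change 3.58, SE 0.62, adjusted p = 0.0107). Its construct libraries were uneven, although the lowest still lay above both empty vector libraries. Apoe, a carrier of lipids, stood at 6.72 and 6.39 CPM in the empty vector libraries and between 18.5 and 66.9 CPM in the construct libraries (median 29; log2 fold change 2.27, adjusted p = 0.0308), and its call held under 14 of 23 alternatives. Sort1 (sortilin), which sorts cargo to lysosomes, stood at 8.13 and 4.16 CPM with the empty vector and between 14.3 and 33.1 CPM with a construct (median 28; log2 fold change 2.14, adjusted p = 0.00600). Without empty vector replicate 1 or 2 the calls of Apoe and Sort1 were lost, and that of Ctsl was lost without replicate 1. Rxra, the retinoid X receptor that pairs with many nuclear receptors, stood at 13.8 and 15.7 CPM in the empty vector libraries and between 25.6 and 38 CPM in the construct libraries (median 32.7; log2 fold change 1.12, adjusted p = 0.00129), and Il6st (gp130), the shared receptor chain of the IL6 family, at 4.82 and 2.77 CPM with the empty vector and between 6.32 and 15.9 CPM with a construct (median 10.1; log2 fold change 1.55, adjusted p = 0.00291). Both lost their call without empty vector replicate 1.

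Eno2 (an enolase, log2 fold change 2.34), Slain1 (a microtubule protein, 2.41), Ndrg2 (2.26), Sgce (a sarcoglycan, 2.21), Hmgn3 (a nucleosome binding protein, 2.19) and Atrnl1 (2.34) also rose. Their empty vector levels lay between 0.642 and 3.26 CPM. Their construct levels lay between 2.34 and 18.3 CPM, and within each gene the classes did not overlap. Of 40 lysosomal genes 6 were higher and 1 lower, against 5.38% and 3.45% of all genes, with a list median of 0.07. The lysosomal transcription factor Tfeb rose by 1.35 on the log2 scale. It stood at 2.20 and 1.05 CPM with the empty vector and between 1.64 and 6.92 CPM with a construct, so the classes overlapped. Its call held under 15 of 23 alternatives and was lost without the block and without either empty vector library. The other changes were small: the cathepsin Ctsb rose by 0.32, the sphingolipid activator Psap by 0.29 and the sterol carrier Npc2 by 0.29.

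Among the falls of genes named by the rule, the 3 that kept their call under every alternative were an innate immune regulator, an RNA binding protein and a lipid flippase. Nlrc3, which restrains innate immune signalling, stood at 87.6 and 79.1 CPM in the empty vector libraries and between 29.4 and 44.8 CPM in the construct libraries (median 40.7; log2 fold change -1.10, SE 0.11, adjusted p = 0.000603). Hnrnpll, a regulator of splicing in lymphocytes, stood at 192 and 177 CPM in the empty vector libraries and between 99.4 and 131 CPM in the construct libraries (median 106; log2 fold change -0.76, SE 0.09, adjusted p = 0.000835). Atp10a, which moves lipids across the plasma membrane, stood at 54 and 66.1 CPM with the empty vector and between 31 and 44.4 CPM with a construct (median 36.5; log2 fold change -0.68, SE 0.07, adjusted p = 0.000393). In each the highest construct library lay below the lower empty vector library. In bulk libraries such as these, fewer cells of a type and less RNA per cell cannot be told apart.

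Gfi1 (chromosome 5, 107716657 to 107726036, minus strand), a transcriptional repressor of blood progenitors and granulocytes, was lower in all 8 construct libraries. It stood at 24.2 and 26.9 CPM with the empty vector and between 5.28 and 12.6 CPM with a construct (median 7.85; log2 fold change -1.66, SE 0.26, adjusted p = 0.00639), a fall of 1.65 in batch 1 and 1.68 in batch 2. Its call held under 19 of 23 alternatives and was lost without either empty vector library. Of the 11 GFI1 corepressor partners tested, 0 were called. Among 33 blood lineage transcription factors Gfi1 was the 1 that was lower, beside Cebpd and Klf1, which were higher. Over all genes 8.83% were called, a share near that of the lineage factors. Cebpd, a factor of myeloid cells, stood at 1.77 and 2.57 CPM in the empty vector libraries and between 2.95 and 5.0 CPM in the construct libraries (median 3.53; log2 fold change 0.76), and Klf1, a factor of red cells, at 0.791 and 0.482 CPM with the empty vector and between 1.06 and 1.32 CPM with a construct (median 1.12; log2 fold change 0.88). Runx1 (0.18, adjusted p = 0.152) and Gata2 (0.17, adjusted p = 0.133) did not pass. Neutrophil markers are given here because Gfi1 is a gene of granulocytes: 18 of 21 were under 1 TPM, and their sum lay between 74.8 and 391.99 TPM with the empty vector and 13.4 and 409 TPM with a construct. Of 8 tested, Mmp8 was lower, and the part of such cells in the fall of Gfi1 was not tested. The erythroid marker sum lay between 102 and 149 TPM with the empty vector and 95.3 and 193 TPM with a construct. Of 16 tested markers 3 were higher (Hbb-bt, Epor and Klf1) and 1 lower (Tfrc), against 5.38% and 3.45% of all genes. These 4 calls held under 6, 13, 15 and 7 of 23 alternatives in that order. The classes of Hbb-bt and of Tfrc overlapped.

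The falls included cell surface proteins of progenitors, myeloid cells and lymphocytes. Entpd1 (CD39), the enzyme that degrades extracellular ATP, stood at 58.7 and 49.2 CPM in the empty vector libraries and between 10.8 and 25.2 CPM in the construct libraries (median 16.2; log2 fold change -1.59, SE 0.24, adjusted p = 0.00665). Slc17a9, which loads ATP into vesicles, fell by 0.50 (adjusted p = 0.00442). The ATP and UTP receptors P2rx1 (0.25) and P2ry2 (0.96) and the ATP channel Panx1 (0.68) rose. Thus 3 of the 20 tested genes of this pathway were higher and 2 lower, against 5.38% and 3.45% of all genes. Entpd1 lost its call without either empty vector library.

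Podxl, a sialomucin of progenitors and endothelium, stood at 21.1 and 24 CPM in the empty vector libraries and between 7.59 and 13.5 CPM in the construct libraries (median 10.8; log2 fold change -1.07, adjusted p = 0.00277). Of 22 progenitor surface proteins 5 were lower (Podxl, Cd34, Cd24a, Plac8 and Ly6e) and 1 higher (Procr), against 3.45% and 5.38% of all genes. The sialomucin Cd34 stood at 522 and 633 CPM with the empty vector and between 349 and 588 CPM with a construct (median 440.2; log2 fold change -0.39), and here the classes overlapped. Procr, a marker of stem cells, stood at 0.188 and 0.161 CPM in the empty vector libraries and between 0.402 and 2.8 CPM in the construct libraries (median 1.3; log2 fold change 2.99, adjusted p = 0.00788). Plac8 (log2 fold change -2.30) and Cd24a (log2 fold change -1.57) had large falls with an uncertain size (SE 0.53 and 0.41), and their calls held under 10 of 23 and 6 of 23 alternatives.

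The chemokine receptors Cx3cr1 and Ccr2, best known from monocytes, were both lower. Cx3cr1, the fractalkine receptor, stood at 182 and 156 CPM with the empty vector and between 52 and 107 CPM with a construct (median 70.1; log2 fold change -1.15, adjusted p = 0.0357). Ccr2, which binds Ccl2, stood at 14.7 and 19.9 CPM in the empty vector libraries and between 3.78 and 14 CPM in the construct libraries (median 7.14; log2 fold change -1.19, adjusted p = 0.0201). These were the 2 called of 14 tested monocyte and macrophage markers, against 8.83% of all genes called. The summed level of that list lay between 108 and 116 TPM with the empty vector and between 72.4 and 121 TPM with a construct, 16 of its 24 members were under 1 TPM, and its part in the result was not tested. The calls of Cx3cr1 and Ccr2 held under 12 of 23 and 15 of 23 alternatives and were lost without either empty vector library.

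Receptor genes and segments of lymphocytes fell although lymphoid markers were close to 0. The antibody segment Ighv1-23 stood at 291 and 236 CPM with the empty vector and between 104 and 194 CPM with a construct (median 158; log2 fold change -0.80), the T cell receptor gene Tcrg-C1 at 49.4 and 39.7 CPM in the empty vector libraries and between 13.4 and 31.2 CPM in the construct libraries (median 18.8; log2 fold change -1.14) and the segment Trav6-3 at 7.68 and 3.53 CPM with the empty vector and between 0.969 and 2.53 CPM with a construct (median 1.38; log2 fold change -1.74). These belong to families of near-identical copies among which estimated counts can be split, so their values are uncertain. Of 9 tested lymphoid markers 0 were called, and their sum lay between 1.65 and 2.79 TPM with the empty vector and 2.04 and 5.21 TPM with a construct. Skap1, a T cell adaptor, fell by 1.97 on the log2 scale, the sphingosine receptor S1pr3 by 1.93, the copine Cpne7 by 2.30, the SAP family adaptor Sh2d1b1 by 1.19, the ligand Tnfsf4 (OX40L) by 1.14, the glutamate receptor Grm6 by 1.52 and the basigin family protein Emb by 0.79. In each of these 7 genes all construct libraries lay below both empty vector libraries.

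**Figure D4:**
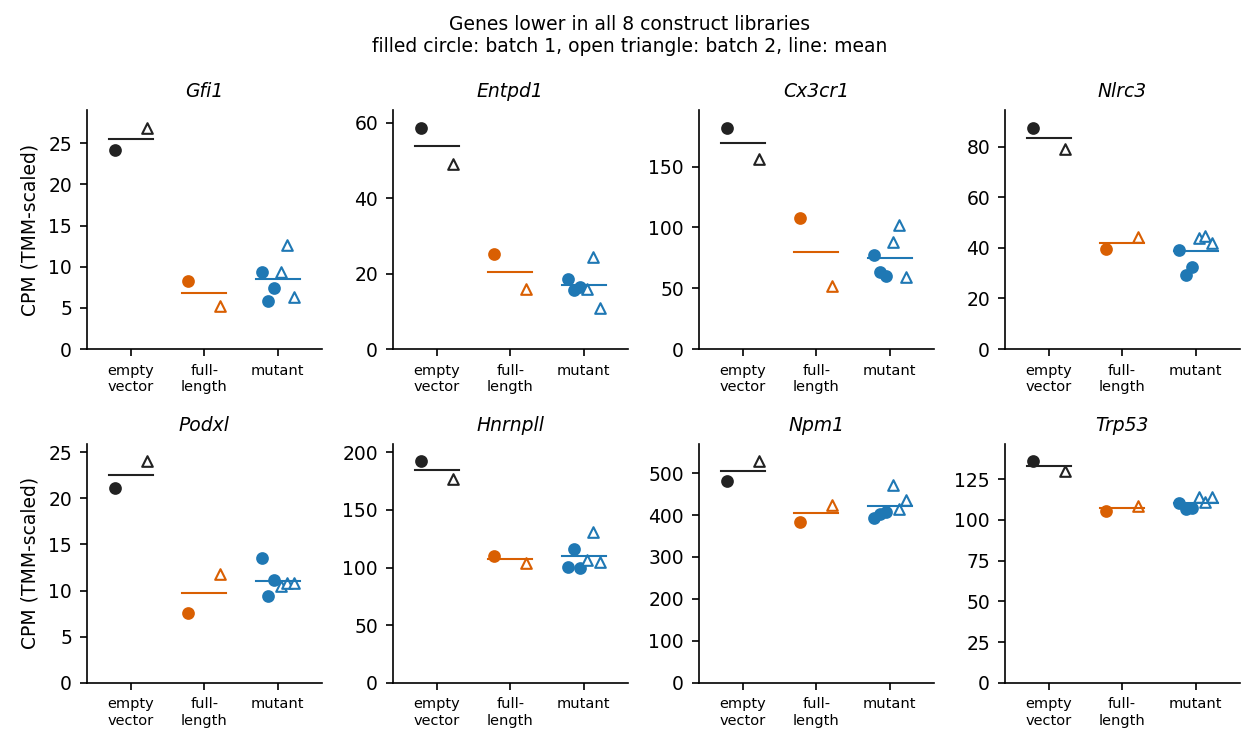
TMM-scaled CPM (y axis, from 0) of 8 genes in each library, by class on the x axis, with filled circles for batch 1, open triangles for batch 2 and a line at the class mean. In every panel both empty vector libraries lie above all 8 construct libraries, by a wide gap for Gfi1 and Entpd1 and a narrow one for Npm1.

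Receptors that dampen or pass on mast cell activation moved in both directions. Of 19 inhibitory and IgG receptors 3 were higher (Pirb, Cd300a and Fcgr2b) and 2 lower (Milr1 and Fcgr3), against 5.38% and 3.45% of all genes. Milr1 (Allergin-1), an inhibitory receptor of mast cells, stood at 61 and 54.1 CPM in the empty vector libraries and between 26 and 39.2 CPM in the construct libraries (median 35.7; log2 fold change -0.74, adjusted p = 0.00237). The inhibitory receptor Pirb stood at 233 and 196 CPM with the empty vector and between 244 and 359.7 CPM with a construct (median 304; log2 fold change 0.47, adjusted p = 0.00587). The 2 IgG receptors went opposite ways: Fcgr2b, which inhibits, rose by 0.38, and Fcgr3, which activates, fell by 0.48 on the log2 scale. They share sequence, so reads may be split between them.

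Against 8.83% of all genes called in either direction (5.38% higher), mast cell granule genes held 1 call. Of 25 granule and protease genes 1 was higher, Hdc, the enzyme that makes histamine, and 0 were lower. Hdc stood at 12.1 and 17.1 CPM in the empty vector libraries and between 21.5 and 54.3 CPM in the construct libraries (median 26.5; log2 fold change 1.07, adjusted p = 0.0418), and its call held under 6 of 23 alternatives. Cpa3 stood at 24805 and 28353 CPM with the empty vector and between 22760.0 and 25780.0 CPM with a construct (median 23323; log2 fold change -0.16, adjusted p = 0.161), and the SCF receptor Kit at 2982 and 3194 CPM in the empty vector libraries and between 2781 and 3523 CPM in the construct libraries (median 3362; log2 fold change 0.08, adjusted p = 0.582). Of 23 genes of the IgE receptor pathway 3 were higher (Lat2, Fyn and Cbl) and 0 lower.

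Of 19 tested cytokines and chemokines 5 were higher and 2 lower, against 5.38% and 3.45% of all genes. The list median was 0.48 over both batches, 0.18 in batch 1 and 0.43 in batch 2. It was 0.07 with full-length ASXL2 and 0.49 with the mutants, a difference that was not tested. Il1b, a mediator of inflammation, stood at 1.66 and 1.88 CPM with the empty vector and between 2.83 and 6.21 CPM with a construct (median 4.68; log2 fold change 1.45, adjusted p = 0.00750). Ccl3, a chemokine for monocytes, stood at 2.62 and 3.65 CPM in the empty vector libraries and between 6.28 and 12.4 CPM in the construct libraries (median 7.33; log2 fold change 1.36, adjusted p = 0.00968). The call of Il1b held under 21 of 23 alternatives and was lost without empty vector replicate 1. That of Ccl3 held under 18 of 23 and was lost without either empty vector library. The chemokines Ccl9 (1.86), Ccl6 (1.47) and Ccl2 (0.48) were also higher, with calls that held under 17, 7 and 9 of 23 alternatives and were lost without the block and without either empty vector library. Il6, a cytokine also present in the medium as protein, fell from 68.7 and 69.9 CPM to 44.1 to 56.4 CPM (median 53.4; log2 fold change -0.40, adjusted p = 0.00555), and Ccl17 fell from 1.41 and 1.5 CPM to 0.341 to 0.730 CPM (log2 fold change -1.43).

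Genes that build ribosomes were lower by a small amount. Of 33 tested ribosome biogenesis and MYC target genes 26 were lower and 0 higher, against 3.45% of all genes lower, and all 33 lay below the empty vector, with a median of -0.30. The nucleolar protein Npm1 stood at 481 and 528 CPM with the empty vector and between 385 and 472 CPM with a construct (median 411; log2 fold change -0.28, adjusted p = 0.00719). Nat10, an RNA acetyltransferase of the nucleolus, stood at 65.9 and 62.2 CPM in the empty vector libraries and between 51.5 and 55 CPM in the construct libraries (median 53.1; log2 fold change -0.27, adjusted p = 0.00466). Srm, the spermidine synthase and a MYC target, stood at 140.4 and 164 CPM with the empty vector and between 94.8 and 141 CPM with a construct (median 113; log2 fold change -0.41), and its classes overlapped. Fibrillarin (Fbl) fell by 0.33, nucleolin (Ncl) by 0.29, the pseudouridine synthase Dkc1 by 0.39 and the RNA polymerase I subunit Polr1b by 0.30. Myc stood at 125 and 115 CPM in the empty vector libraries and between 62.4 and 112 CPM in the construct libraries (median 88.7; log2 fold change -0.50, adjusted p = 0.0622). The calls of the list rest on the block and on batch 1: 1 member was called without the block, 1 without empty vector replicate 1, 26 in batch 1 alone and 1 in batch 2 alone. The median stayed negative, between -0.39 in batch 1 and -0.18 in batch 2, under the 23 alternatives.

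Ribosomal protein genes, a set added after the values were seen, were lower for 48 of 81 tested and higher for 0. Over all genes 3.45% were lower. The median of the set was -0.20. Rpl28 stood at 331 and 340.2 CPM in the empty vector libraries and between 271 and 295 CPM in the construct libraries (median 280.4; log2 fold change -0.26, adjusted p = 0.00277). Many ribosomal protein genes have pseudogene copies, so single values are uncertain.

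Genes of the amino acid and unfolded protein responses followed the same direction. Of 30 tested 9 were lower and 0 higher, against 3.45% of all genes lower. The list median was -0.19 over both batches, -0.29 in batch 1 and -0.06 in batch 2. Xbp1, a factor of the unfolded protein response, stood at 494 and 458 CPM with the empty vector and between 335 and 425 CPM with a construct (median 368; log2 fold change -0.35, adjusted p = 0.0375). The stress factor Atf4 stood at 522 and 662 CPM in the empty vector libraries and between 361 and 622 CPM in the construct libraries (median 489; log2 fold change -0.30, adjusted p = 0.0457), and the amino acid transporter Slc7a5 and the asparagine synthetase Asns fell by 0.26 and 0.28. The call of Xbp1 held under 10 of 23 and that of Atf4 under 8 of 23 alternatives.

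Cell division lists had medians of opposite sign in the 2 batches, a difference that was not tested. The median of mitosis genes was -0.47 in batch 1 and 0.16 in batch 2, and 0 of 30 members were called. That of S phase genes was -0.42 and 0.03, and 1 of 34 members, the origin protein Orc1 (log2 fold change -0.51), was called. Trp53, the tumour suppressor p53, fell from 136 and 130.1 CPM to 106 to 114 CPM (median 109; log2 fold change -0.28, adjusted p = 0.00280), with a narrow spread over the 8 construct libraries. Its call held under 18 of 23 alternatives and was lost without empty vector replicate 1 and within batch 2 alone. Trp53 was chosen after its values were seen. Of 25 p53 targets 5 were lower and 3 higher, against 3.45% and 5.38% of all genes. The nuclease Aen (log2 fold change -0.31) and the death receptor Eda2r (-0.62) were lower, and the death gene Pmaip1 (0.40) was higher.

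Most glycolysis genes lay above the empty vector, and 5 of 33 passed the test, against 5.38% of all genes higher. Of 33 members of the glycolysis and hypoxia list 31 lay higher, against 8592 of 17810 genes tested, and 5 were called (Pfkp, Pfkm, Eno2, Slc2a1 and Bnip3l). The list median was 0.55 over both batches, 0.50 in batch 1 and 0.55 in batch 2. With full-length ASXL2 it was 0.35 and with the mutants 0.63. Pfkm, a phosphofructokinase, stood at 25.6 and 23.9 CPM with the empty vector and between 30.3 and 41.2 CPM with a construct (median 35.4; log2 fold change 0.52, adjusted p = 0.00132). Its platelet form Pfkp stood at 288 and 241 CPM in the empty vector libraries and between 301 and 457 CPM in the construct libraries (median 430.4; log2 fold change 0.63, adjusted p = 0.0151). Pyruvate kinase Pkm stood at 1389 and 897 CPM with the empty vector and between 989 and 2212 CPM with a construct (median 1865; log2 fold change 0.59, adjusted p = 0.0552), and there the empty vector libraries differed from each other by as much as the classes. Of 31 respiratory chain genes 0 were higher and 2 lower, Cox5a and Ndufa9, with a median of -0.08.

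**Figure D5:**
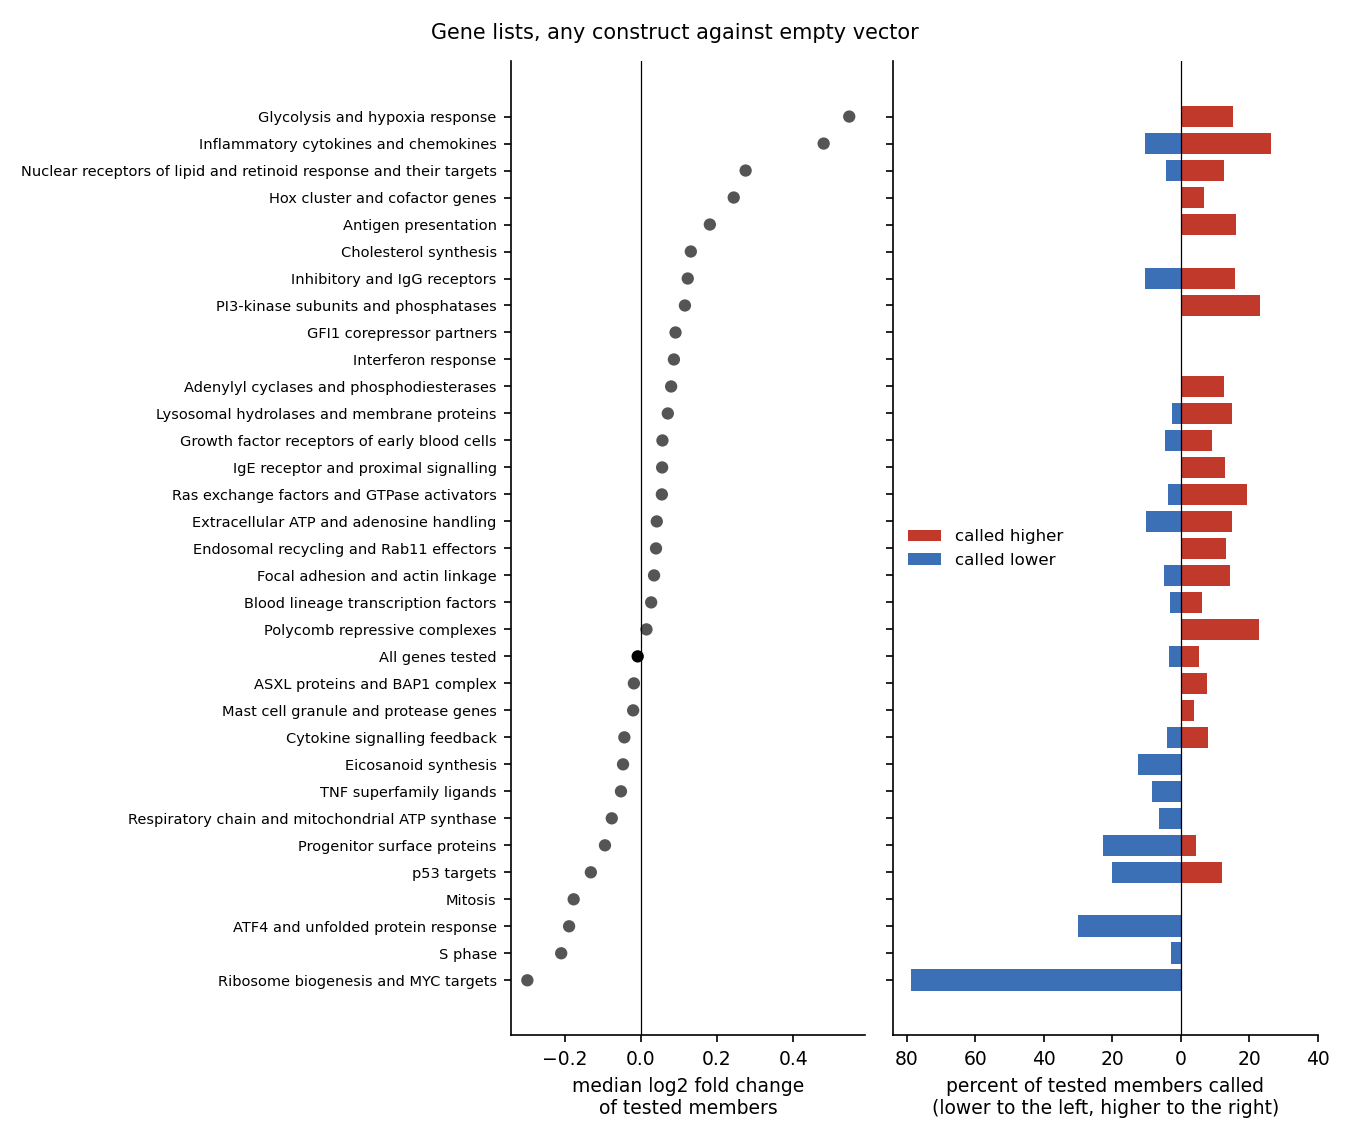
Median log2 fold change of the tested members (left) and percent of tested members called higher or lower (right) for 32 gene lists and for all genes tested (black point). Glycolysis and cytokines lie highest by median, ribosome biogenesis lies lowest, and its bar of lower calls is the longest.

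Polycomb genes, whose complexes set the mark that BAP1 removes, rose in part. Of 35 tested 8 were higher (Cbx6, Cbx2, Cbx7, Kdm2b, Scmh1, Rybp, Pcgf5 and Scml4) and 0 lower, against 5.38% of all genes higher, while the list median was 0.01. Cbx6, a chromodomain subunit, stood at 79.8 and 69.3 CPM in the empty vector libraries and between 89.7 and 117 CPM in the construct libraries (median 103; log2 fold change 0.47, SE 0.05, adjusted p = 0.000391), and its call held under 22 of 23 alternatives. Its relative Cbx2 stood at 6.93 and 7.06 CPM with the empty vector and between 9.23 and 11.1 CPM with a construct (median 10.5; log2 fold change 0.56, adjusted p = 0.00555). Cbx7 rose by 0.73, the adaptor Rybp by 0.37, Pcgf5 by 0.56 and the demethylase Kdm2b by 0.23 on the log2 scale. The call of Cbx2 held under 20 of 23 alternatives, and those of Scml4, Cbx7, Rybp, Kdm2b, Scmh1 and Pcgf5 under 16, 15, 15, 13, 10 and 8 of 23. These 6 lost it without the block and without empty vector replicate 1.

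Antigen presentation genes rose in 4 of 25 tested and fell in 0, against 5.38% of all genes higher, with a median of 0.18. H2-Q4, a class I molecule, stood at 15.9 and 10.2 CPM in the empty vector libraries and between 19.9 and 25.1 CPM in the construct libraries (median 23; log2 fold change 0.80, adjusted p = 0.00148), and the class II chain H2-Ab1 at 12 and 9.52 CPM with the empty vector and between 15.6 and 34.9 CPM with a construct (median 26.5; log2 fold change 1.17, adjusted p = 0.0154). Class I genes have near-identical copies, which makes the level of H2-Q4 uncertain. Of 27 interferon response genes and 25 cholesterol synthesis genes 0 were called, and the interferon median was 0.087 and the cholesterol median 0.13. The cholesterol median was -0.037 in batch 1 and 0.33 in batch 2.

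The remaining lists are read against 5.38% of all genes higher and 3.45% lower. Of 25 genes of cytokine signalling feedback Spred3 and Spry2 were higher and Spry1 lower. Spry1, an inhibitor of growth factor signalling, had 37 and 49 counts with the empty vector and between 1 and 12 in the construct libraries (log2 fold change -3.14, adjusted p = 0.00244). Of 22 growth factor receptors and ligands of early blood cells Il6st and Epor were higher and Flt3l lower. Of 24 nuclear receptors of lipid and retinoid response and their targets 3 were higher (Rarg, Rxra and Apoe) and 1 lower (Angptl4). The median of that list was 0.28, with 0.08 for full-length ASXL2 and 0.30 for the mutants. Of 30 endosomal recycling genes 4 were higher (Ehd1, Snx27, Rab4a and Rab11fip1) and 0 lower. Of 15 tested Hox genes and cofactors 1 was higher and 0 lower. Of 12 TNF superfamily ligands Tnfsf4 was lower, and of 16 eicosanoid synthesis genes Ltc4s, which makes leukotriene C4, and Pla2g4c were lower. The Hox median was 0.24, and 11 of the 15 lay above the empty vector.

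Some large contrasts lay in genes of no list, named here after their values were seen. Gm26880, a predicted gene (chromosome 4, 146509094 to 146511764, minus strand), was among the abundant transcripts with the empty vector, at 644 and 547 CPM, and stood from 90.4 to 159.7 CPM (median 117) with a construct (log2 fold change -2.34, SE 0.13, adjusted p = 7.76e-05). AU020206, a long noncoding RNA, stood at 75.7 and 65.8 CPM in the empty vector libraries and between 28 and 44.8 CPM in the construct libraries (median 32.3; log2 fold change -1.04, adjusted p = 0.00404). Plekha8, a lipid transfer protein, stood at 0.810 and 0.817 CPM with the empty vector and between 3.49 and 4.84 CPM with a construct (median 4.16; log2 fold change 2.36, adjusted p = 5.85e-05). The muscle gene Ky fell from 1.71 and 1.39 CPM to 0.166 to 0.476 CPM, and the sulfide enzyme Sqor rose from 0.151 and 0.131 CPM to 0.634 to 1.01 CPM. The calls of Gm26880 and Plekha8 held under all 23 alternatives.

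Apol7b and Apol7e, neighbouring genes of the apolipoprotein L family on chromosome 15, moved in opposite directions. Apol7e had 104 and 98 counts in the empty vector libraries and 0 in each of the 8 construct libraries, which is at least 38.1-fold lower when 3 counts per library are taken as the limit that a count of 0 allows. Apol7b had 3 and 1 counts with the empty vector and between 53 and 172 with a construct, a pooled ratio of 51.3 (exact 95% interval 19.98 to 189, counting error only). The 2 transcripts are close copies: 82.5% of the 31-base words of Apol7e also occur in Apol7b. The sum of both genes was similar in the classes of each batch, at 2.01 CPM with the empty vector and 2.05 to 2.35 CPM with a construct in batch 1, and at 1.44 CPM and 0.886 to 1.48 CPM in batch 2. The sum differed less between the classes than either copy did, and reads of such copies may be assigned to the wrong one.

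Neighbouring genes on chromosome 13 rose together. The stretch from Habp4 to Cdk20 (chromosome 13, 64161824 to 64441773, mm10) holds 6 tested genes, and all 6 were higher, but 5 of them lost their call without empty vector replicate 1 and within batch 2 alone, and Cdc14b kept it under all 23 alternatives. It was the longest run of adjacent called genes in 1 direction, the next longest had 4 genes, and it was picked out after the values were seen. Habp4, an RNA binding protein, stood at 2.86 and 3.25 CPM in the empty vector libraries and between 4.22 and 5.78 CPM in the construct libraries (median 5.1; log2 fold change 0.73, adjusted p = 0.0111). Cdc14b, a phosphatase of the cell cycle, stood at 0.716 and 1.09 CPM with the empty vector and between 2.5 and 3.73 CPM with a construct (median 3.26; log2 fold change 1.80, adjusted p = 0.00109). The noncoding gene 1810034E14Rik lies inside Cdc14b on the other strand, so reads of the 2 cannot be told apart here. It rose by 1.16 and Aaed1 by 2.11 on the log2 scale. Cdk20, a cell cycle kinase, stood at 0.113 and 0.0730 CPM in the empty vector libraries and between 0.313 and 1.05 CPM in the construct libraries (median 0.505; log2 fold change 2.63, adjusted p = 0.00423), and Ctsl lies between Aaed1 and Cdk20. The nearest tested genes outside, Zfp367 (0.01, adjusted p = 0.906) and Mfsd14b (-0.08, adjusted p = 0.350), were not called.

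Upstream sequences of Habp4, the first gene of this stretch, and of the ribosome biogenesis gene Nop2 are shown because each holds a motif of a known factor. They come from the 250 bases before a RefSeq transcript start (GRCm38.p6), 5′ to 3′ on the strand of the gene, and only bases outside every annotated exon are printed. For Nop2 these are all 250 bases, and for Habp4 the first 208, since an annotated Habp4 exon begins 42 bases before the RefSeq start. Capitals mark the E-box CACGTG, bound by MYC and TFEB family factors, in Nop2, and the cyclic AMP response element TGACGTCA in Habp4.
Habp4 (chr13:64161616-64161823, plus strand): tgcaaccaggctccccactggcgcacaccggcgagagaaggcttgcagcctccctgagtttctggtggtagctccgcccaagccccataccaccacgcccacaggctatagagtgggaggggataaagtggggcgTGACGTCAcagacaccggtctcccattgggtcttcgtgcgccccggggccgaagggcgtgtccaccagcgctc
Nop2 (chr6:125131633-125131882, plus strand): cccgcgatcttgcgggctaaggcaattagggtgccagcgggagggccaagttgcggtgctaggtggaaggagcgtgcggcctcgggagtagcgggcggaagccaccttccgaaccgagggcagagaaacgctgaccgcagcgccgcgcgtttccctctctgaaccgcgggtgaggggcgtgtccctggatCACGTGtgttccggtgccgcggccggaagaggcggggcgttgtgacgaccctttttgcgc
Both motifs were searched on both strands in windows of 300 bases, 250 before and 50 after each start. The E-box occurred in 9.34% of 1006 windows of higher genes, 14.8% of 533 windows of lower genes, 9.19% of 13161 windows of tested genes not called and 7.15% of all 32851 windows. It occurred in 6 of 28 windows (21.4%) of the ribosome biogenesis list, those of Mybbp1a, Nop2, Pes1, Tsr1, Utp20 and Utp4. The cyclic AMP element occurred in 2.09, 3.57, 2.91 and 1.79% of the same 4 sets. The GFI1 core AAATCAC occurred in 1.29% of windows of higher genes, 1.88% of lower, 2.32% of tested genes not called and 3.20% of all, and the RUNX motif TGTGGT in 12.2, 14.8, 13.5 and 16.8%. The letters that end the cyclic AMP element also begin the E-box, so matches may share them. A match is a description of letters and not a site of binding.

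Of 15 tested genes within 1 Mb of Asxl2 on either side, 2 were higher and 0 lower, against 5.38% of all genes higher. Ncoa1, a nuclear receptor coactivator, stood at 1.24 and 0.978 CPM with the empty vector and between 2.43 and 3.6 CPM with a construct (median 2.98; log2 fold change 1.43, adjusted p = 0.000182), and its call held under all 23 alternatives. The kinesin Kif3c stood at 30.5 and 22.3 CPM in the empty vector libraries and between 25.8 and 37.9 CPM in the construct libraries (median 33.5; log2 fold change 0.31, adjusted p = 0.0348). Its call held under 10 of 23 alternatives and was lost without the block and without either empty vector library. Of the 13 not called, Efr3b had the largest log2 fold change (1.40, adjusted p = 0.0565), followed by Adcy3 (0.71, adjusted p = 0.0801) and Dtnbos (0.67, adjusted p = 0.521). Rab10 (0.01), Dtnb (0.03) and Dnmt3a (0.04) were close to 0.

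The common effects were also tested for a difference between mutant and full-length ASXL2. Full-length ASXL2 alone gave 686 higher (3.85%) and 217 lower genes (1.22%) against the empty vector. The 6 mutant libraries gave 1214 (6.82%) and 711 (3.99%), with the same 2 empty vector libraries as controls. The test of mutants against full-length ASXL2 compares those libraries with each other, but all 10 libraries entered its scaling, batch term and variance estimate. It called 71 genes (0.399%), with 2003 of 17810 at an unadjusted p under 0.05. Among the 1573 genes of the common effect 7 were called, a share near that of all genes, and 254 had an unadjusted p under 0.05. All 7 were rises: Rasgef1a, Fyn, Dst, Arhgap5, B3galnt1, Trp53i11 and Adam15. Rasgef1a, a Ras exchange factor, stood at 5.77 and 2.21 CPM with full-length ASXL2 and between 5.05 and 12.1 CPM in the mutants, against 1.58 and 0.992 CPM with the empty vector. The difference of mutants from full-length was 1.21 on the log2 scale (SE 0.21, adjusted p = 0.0441). Dst, a cytoskeletal linker, stood at 12.6 and 14.3 CPM with full-length ASXL2 and between 20.6 and 24.4 CPM in the mutants (difference 0.77, SE 0.10, adjusted p = 0.0101). Arhgap5, which switches off small GTPases, stood at 16.8 and 13.9 CPM and between 17.7 and 22.3 CPM (difference 0.39, SE 0.07, adjusted p = 0.0406). Adam15, a membrane protease, was the 1 gene with the larger rise in full-length libraries, at 63 and 93.2 CPM against 51.8 to 74.8 CPM (difference -0.31, SE 0.05, adjusted p = 0.0364).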

How the data were processed

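RNA was measured in 10 libraries. Per the file headers, the deposited tables give kallisto's estimated counts and TPM values for 115088 transcripts. Kallisto, DESeq2 and mm10 are named, without versions, per the submitters' processing notes. The index, the strand setting and filters, not given in the sources used here, stay unknown, so near-identical or overlapping antisense genes cannot be told apart.

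The authors' estimated counts were summed per gene through GENCODE M21 (GRCm38), where 114200 transcripts matched and 888 did not, leaving between 99.34 and 99.56% of counts. They were rounded and tested with edgeR 4.0.16 (R 4.3.3): TMM, its default filter (10 counts), the robust quasi-likelihood test, a blocking term for the batch in the deposited names, and Benjamini-Hochberg adjustment over 17810 genes. Alternatives were DESeq2 1.42.0, its size factors, no or a stricter filter (1 CPM in 4 libraries), equal weight for full-length and mutants, a test against 1.2-fold, limma 3.58.1 on log2(TPM + 1) and log2(TPM + 0.1), other blocks, libraries whose name matches the label, each library left out and, added after the values were seen, each batch alone. The fits were tested on simulated data. Estimated counts carry no molecular identifiers, and limits from a count of 0 cover counting error only.

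The labels give each replicate number as a batch, and the deposited names give a batch that differs from it for 2 libraries; the block uses the deposited names. With the labels' numbers, deviations from the group means correlated between -0.145 and 0.578 over 10 pairs of groups, above 0.1 in 3. By the deposited names, the shift between batches in the empty vector and in the constructs correlated at 0.604 across genes, which are not independent replicates.

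Members and lists were chosen with earlier results of these data known. Named genes were, among called genes with the same side in 8 of 8 libraries, at least 5 CPM and no predicted symbol, the 15 largest rises and 15 largest falls, the 5 smallest p in each direction and also, with no limit on call, CPM or symbol, up to 3 genes of each of 40 lists by p, beside Asxl1, Asxl2, Asxl3 and Bap1. Asxl3 did not enter the test. Promoter sequences are RefSeq's (GRCm38.p6); 731 of the 959 higher and 442 of the 614 lower genes had 1. List members named beyond this rule, to complete a count, were named after their values were seen. Software for tables was pandas 2.3.3 and numpy 2.4.6 under Python 3.11.15, and for figures matplotlib 3.10.9.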

Additional observations from a re-analysis of the deposited data

Results flagged for a closer look

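Among the 8 construct libraries, 1 library stood apart from the others in 3 of the 106 called named genes tested, where the gap to the nearest library, as a share of the whole range of the within-batch log2 differences, passed Dixon's 95% critical value for 8 libraries. For Il6 the share was 0.643 and the library was full-length replicate 2, with a difference from its empty vector library of -0.66 against -0.42 to -0.28 in the others. For Hnrnpll it was 0.555 and the library was Mutant3 replicate 1, at -0.44 against -0.95 to -0.72. For Il1b it was 0.539 and the library was again Mutant3 replicate 1, at 0.57 against 1.23 to 1.79. Mutant3 is the label of this library, and its deposited name carries another mutant number and another batch. Which mutant form it holds was not settled. The critical value would mark about 1 in 20 genes if the 8 differences of a gene were independent. Those of a batch share 1 empty vector library, so the 3 of 106 cannot be set against that rate. The direction in these libraries was that of the others.

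The effect of a construct differed between the mutants and full-length ASXL2 by edgeR's quasi-likelihood test for 2 genes named by the rule. For Rasgef1a the difference of mutants from full-length was 1.21 on the log2 scale (adjusted p = 0.0441), with 6 of 6 mutant libraries above the full-length library of their batch. For the kinase Fyn it was 0.28 (adjusted p = 0.0431), also in 6 of 6.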

How the results depend on the processing

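All 1573 called genes, or all of them that were tested, kept their sign under each of the 23 alternatives, while the number called varied widely (1573 in the report, 959 higher and 614 lower). The alternatives reuse the same libraries. For 1563 of the 1573 genes all 8 construct libraries already lay on 1 side of the empty vector library of their batch. Kept signs, here and for the named genes below, therefore describe the calls and do not test them. Without the replicate block 304 genes were called (252 higher, 52 lower) and with the block by label 293 (244 and 49), so the pairing by the batch of the deposited names carries most calls. In libraries whose name matches the label 390 were called (283 and 107), in the test against 1.2-fold 381 (337 and 44), with limma on log2(TPM + 1) 494 (277 and 217) and on log2(TPM + 0.1) 426 (311 and 115), and with DESeq2's Wald test 2515 (1430 and 1085). Batch 1 alone gave 1219 (536 and 683) and batch 2 alone 190 (161 and 29). Leaving out each library in turn gave between 191 and 1895 calls, between 157 and 1197 higher and between 34 and 698 lower. The lowest counts came without empty vector replicate 1 (191), and without replicate 2 there were 1079, of which 540 higher and 539 lower. Without Mutant1 replicate 1 the lower calls numbered 375 and without Mutant2 replicate 1 405. Fits with 1 empty vector library assume that it varies like the other groups. Batch 1 alone and batch 2 alone are the effects within each batch in 1 fit of all 10 libraries, with shared scaling and variance. Another scaling (DESeq2's size factors) gave 928 higher and 642 lower, and no filter 1343 in all. The share of higher among called genes was 61.0% and ranged from 44.0% in batch 1 alone to 88.5% against 1.2-fold. Of the 106 named called genes, 80 lost their call without empty vector replicate 1, 48 without replicate 2 and 65 without the block, and none reversed. The list medians moved by less than the spread between construct libraries in 836 comparisons of an alternative with the reported value and by more in 84. The cause of these differences was not tested. Genes under about 5 CPM rest on few counts, and their sizes are the least certain.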
